A study of Mus musculus with 6 samples.

Results

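The genes described here are 31 markers of Kupffer cells, the resident macrophages of liver, and of macrophages, monocytes and other myeloid cells more widely. They were looked up by symbol among the 55536 genes of the mouse annotation GENCODE M21 (GRCm38), and all 31 were found. RNA sequencing of whole liver gave 6 libraries. The animals were males of the inbred strain C57BL/6, with no added genetic change named in the labels, and were 6 weeks old when dosing began. In the PS-MP group (3 libraries) the mice received polystyrene microplastics, small plastic particles, by mouth (0.4 mg per day, given on 2 occasions a week over 8 weeks). In the water group (3 libraries) they received water by mouth on that schedule. The labels name neither the size of the particles nor separate mice for the libraries of a group. A p-value here therefore sets the difference between groups against the spread between these libraries, and may not speak for separate mice.

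Kupffer cells line the liver sinusoids, where they take up particles, microbes, dying cells and aged red blood cells from the blood. Most descend from embryonic precursors and renew themselves in place, and they carry receptors that newly arrived monocytes lack. When resident cells are lost or the liver is injured, monocytes marked by Ccr2 and Ly6c2 can enter and differentiate, and in fatty liver a lipid-associated state marked by Trem2, Gpnmb and Cd9 appears. In RNA from whole tissue, fewer cells of a type and less RNA per cell cannot be told apart.

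None of the 27 markers that could be tested passed an adjusted p under 0.05 between PS-MP and water. Genes are called changed here where they passed that threshold. With 3 libraries per group, a gene not called changed may still differ. The deposited values are FPKM, reads per gene divided by exon length and library total, and they were tested as log2(FPKM + 0.5) with limma-trend, with p adjusted over all genes tested. A low-count rule (in 3 or more libraries, a level worth at least 10 reads at the median depth) kept 27 of the 31 markers and 13299 genes in all. Of all genes tested, 0.489% passed an adjusted p under 0.05, and 0 of the 27 markers did. With limma-voom on the reads behind the values, 0 of the 27 passed as well. That fit gave 3 of the 27 markers an unadjusted p under 0.05, against 1774 of the 13299 genes. An unadjusted p under 0.05 was reached by 4 markers (Fcgr1, Cd5l, Cd163 and Aif1), which is 14.8% of the 27 against 13.1% of all genes. The groups were separate, with every PS-MP value above every water value, for 3 markers (Cd5l, Fcgr1 and Tyrobp), 11.1% of the 27 and 11.1% of all genes. In the lower direction this held for 0 of the 27 tested markers, against 8.12% of all genes. These shares of markers lay near the background or below it. The sign of the fold change was positive for 20 of the 27 markers (74.1%), against 53.7% of all genes, and their median log2 fold change was 0.09 against 0.01 for all genes.

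The share of positive values moved with the PS-MP library that was left out. Without PS-MP replicate 1, 15 of 27 fold changes were positive (55.6%, against 54.7% of all genes), and the median was 0.0038, against 0.02 for all genes. Fcgr1 was the 1 marker with an unadjusted p under 0.05 in that fit (3.70%, against 11.7% of all genes). Without PS-MP replicate 2, 18 of 27 were positive, with a median of 0.05, against 0.02 for all genes. In that fit 3 of the 27 markers (Cd5l, Fcgr1 and Cd9) had an unadjusted p under 0.05, against 1776 of 13299 genes. Without PS-MP replicate 3 instead, 24 of 27 were positive with a median of 0.14 (51.3% of all genes were positive in that fit), and 0 markers passed the adjusted threshold. Of the 27 markers, 7 then had an unadjusted p under 0.05, or 25.9%, against 11.5% of all genes.

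**Figure D1:**
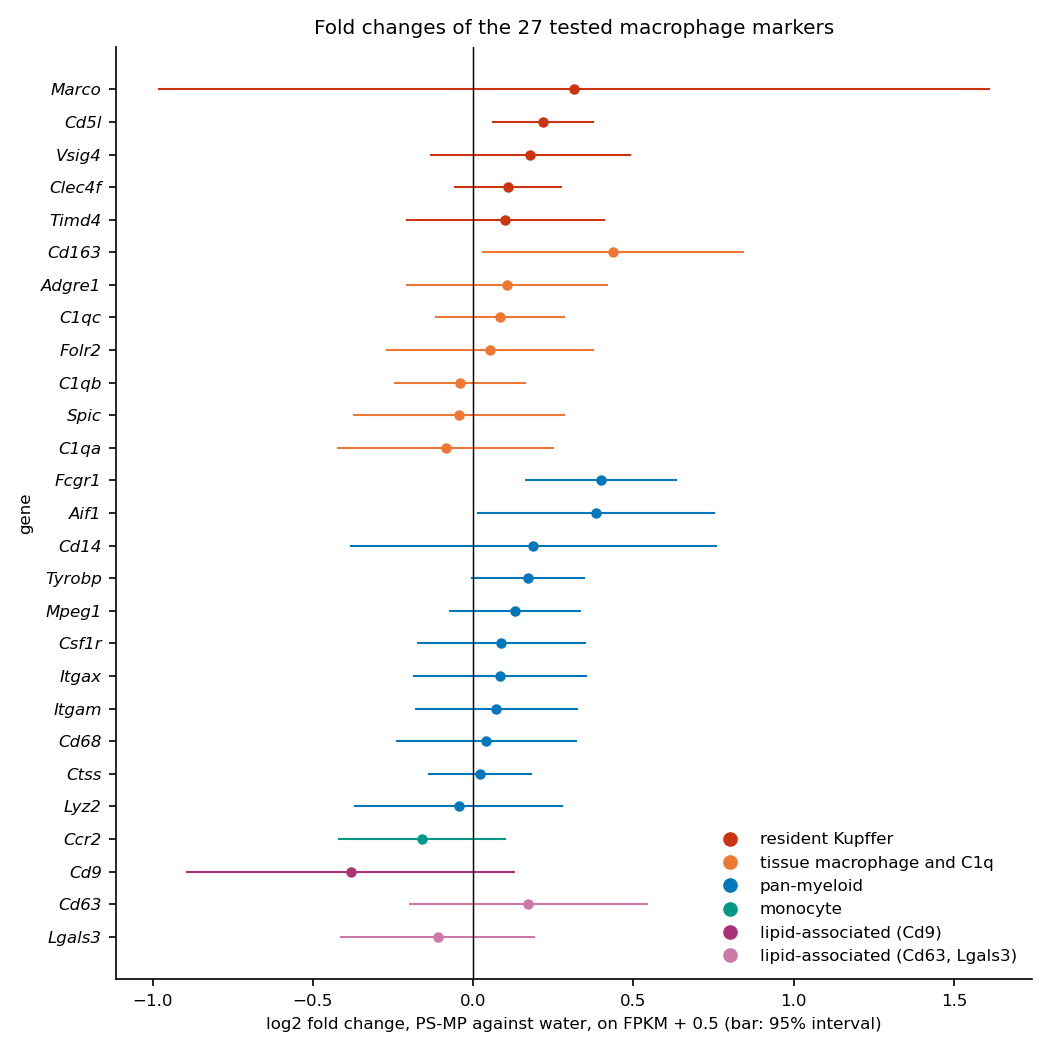
Each point is the log2 fold change of a tested marker, PS-MP against water, on log2(FPKM + 0.5), and the bar is its 95% interval from limma-trend with 3 libraries per group; colours give the role of the gene. The points run from -0.38 for Cd9 to 0.43 for Cd163, and the interval of Marco is the widest, from -0.98 to 1.61.

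The libraries held 13082210 to 16948343 reads. PS-MP replicate 3 stood apart: its chi-square distance from the other PS-MP libraries was 26.2 and 28.3 times the degrees of freedom, against 9.99 to 11.97 for the other pairs within a group. Snap25, a protein of nerve terminals, had at most 2 reads in a water library but 61, 19 and 860 in the PS-MP libraries. The 10 forebrain neuron markers listed summed to 1.605 to 1.82 FPKM in water and 5.92, 3.11 and 37.0 FPKM in PS-MP. Reads of Ucp1, a brown fat protein, numbered 139, 0 and 15 in water and 0, 0 and 68 in PS-MP. Albumin, the defining hepatocyte transcript, was abundant in all 6 libraries, from 24624 FPKM in PS-MP replicate 3 to 33953 in water replicate 2. Microglia, the macrophages of brain, share many of the markers described here. Of the 9 microglial markers listed, P2ry12 had 17, 9 and 10 reads in water and 25, 15 and 28 in PS-MP, Tmem119 had 1 to 7 reads in each library and Fcrls 0 or 1. The sum over that list was 18.6 to 22.3 FPKM in water and 18.8 to 19.7 in PS-MP, with 0 to 2 of its genes at 0 in a library. The part of brain transcripts in the marker values was not tested beyond leaving out PS-MP replicate 3, whose effect is given with the results.

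Kupffer cell and macrophage transcripts were present in every library. The markers were ordered by mean FPKM over the 6 libraries, a scale that divides by the merged length of all annotated exons of a gene. Lyz2 was highest at 33.5, followed by Cd5l at 32.3, Clec4f at 23.2 and C1qa at 21.5. Lyz2 and Cd5l overlapped in their ranges over the libraries (26.4 to 38.8 and 28.5 to 36.2 FPKM), and so did 25 of the 30 neighbouring pairs in this order. The 5 pairs with separate ranges were Cd5l above Clec4f, C1qc above Cd9, Cd68 above Adgre1, Timd4 above Lgals3 and Spic above Itgax. Of the 31 markers, 19 had a mean of at least 1 FPKM and 9 of at least 10. All 5 resident Kupffer cell markers, of which Clec4f is the most restricted to these cells, were above 2 FPKM in every library. The monocyte genes Ccr2, Ly6c2 and Cx3cr1 had means of 0.154, 0.111 and 0.104 FPKM, and Trem2 and Gpnmb closed the order at 0.0787 and 0.0680. The order depends in part on the annotated lengths. Trem2, with 9 reads in water and 26 in PS-MP over 4946 bases, ranked below Ly6c2, with 23 and 5 over 2740 bases.

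Sequence before the start of the gene was available for 26 of the 31 markers in the RefSeq promoter table (GRCm38.p6, windows of 300 bases that span the start). Macrophage genes commonly carry sites for PU.1, the factor that sets myeloid identity, whose core is GAGGAA. Searched on both strands, that core was present for 13 of the 26 markers (50%) and for 31.3% of all 27025 genes in the table. The longer form GAGGAAGT, which contains the core, was present for 3 (Ctss, C1qc and Ly6c2; 11.5% against 3.69% of all genes). The MAF motif TGCTGAC was found for Timd4 alone (3.85% against 5.28%), and the C/EBP pattern TTGCNNAA for Cd68 and Trem2 (7.69% against 12.2%). A match describes letters and is not evidence of binding. The 200 bases before the start are shown for Cd5l and Fcgr1, which stood highest against water among the markers with separate groups, for C1qb of the C1q cluster, and for Ly6c2, whose reads were lower in every PS-MP library. Each reads 5′ to 3′ on the strand of the gene, and capitals mark the core, written as TTCCTC where it lies on the opposite strand. The windows are chr3:87357681-87357880 (plus strand) for Cd5l, chr3:96293970-96294169 (minus) for Fcgr1, chr4:136886201-136886400 (minus) for C1qb and chr15:75111972-75112171 (minus) for Ly6c2.
Cd5l: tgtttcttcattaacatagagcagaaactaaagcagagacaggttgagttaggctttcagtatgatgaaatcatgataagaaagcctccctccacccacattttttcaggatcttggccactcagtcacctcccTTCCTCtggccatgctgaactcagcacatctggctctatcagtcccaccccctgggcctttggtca
Fcgr1: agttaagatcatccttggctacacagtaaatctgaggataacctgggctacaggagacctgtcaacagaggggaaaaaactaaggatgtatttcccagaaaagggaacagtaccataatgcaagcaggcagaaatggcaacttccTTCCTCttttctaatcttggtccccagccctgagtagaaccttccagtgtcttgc
C1qb: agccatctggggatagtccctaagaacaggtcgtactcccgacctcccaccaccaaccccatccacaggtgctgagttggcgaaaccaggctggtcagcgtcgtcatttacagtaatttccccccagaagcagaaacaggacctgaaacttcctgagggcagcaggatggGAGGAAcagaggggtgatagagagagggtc
Ly6c2: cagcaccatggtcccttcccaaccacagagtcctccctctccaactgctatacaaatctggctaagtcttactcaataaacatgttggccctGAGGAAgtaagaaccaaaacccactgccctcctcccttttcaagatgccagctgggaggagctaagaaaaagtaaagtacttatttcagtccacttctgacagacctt
The core began 66 bases before the start of Cd5l, 55 before Fcgr1, 30 before C1qb and 108 before Ly6c2. In C1qb and Ly6c2 it lay on the strand of the gene, and in Cd5l and Fcgr1 on the opposite strand.

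Among the 5 resident Kupffer cell markers, all fold changes were positive and 0 passed the test (median log2 fold change 0.18). The values that follow are for replicates 1, 2 and 3 of each group in that order. Cd5l, also called AIM, a secreted protein of tissue macrophages that binds lipids and microbial surfaces (chromosome 3, 87357881 to 87371073), was at 29.7, 28.5 and 31.4 FPKM in water and 36.2, 35.4 and 32.8 FPKM in PS-MP. All 3 PS-MP libraries lay above all 3 water libraries, with replicate 3 closest to water. The means were 29.9 ± 1.43 and 34.8 ± 1.76 FPKM (SD, n = 3 each), 1.16-fold with a 95% interval of 1.04 to 1.30 (log2 fold change 0.22, SE 0.07, unadjusted p = 0.0135 and adjusted p = 0.247 by limma).

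Clec4f, the C-type lectin that in mice is found on Kupffer cells and hardly on other macrophages (chromosome 6, 83644542 to 83656187), was at 20.9, 22.1 and 23.8 FPKM in water and 24.2, 25.1 and 22.8 in PS-MP. PS-MP replicates 1 and 2 were above all water libraries, replicate 3 lay inside their range, and the groups overlapped. The log2 fold change was 0.11 (SE 0.07, 95% interval -0.06 to 0.28, adjusted p = 0.571 by limma), whose upper end is a fold of 1.21. Timd4, a receptor for phosphatidylserine on dying cells that marks embryonically derived Kupffer cells (chromosome 11, 46810800 to 46844332), was at 3.06, 2.96 and 3.20 FPKM in water and 3.87, 3.61 and 2.62 in PS-MP. PS-MP replicates 1 and 2 were the highest of the 6 libraries and replicate 3 the lowest (log2 fold change 0.10, SE 0.13, adjusted p = 0.797 by limma). Vsig4, the complement receptor CRIg that clears opsonised bacteria (chromosome X, 96247203 to 96293438), was at 11.9, 17.2 and 14.9 FPKM in water and 18.3, 14.9 and 16.4 in PS-MP. Water alone spanned 11.9 to 17.2 FPKM, and PS-MP replicate 1 was the 1 library above it (log2 fold change 0.18, SE 0.14, adjusted p = 0.616 by limma).

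Marco, a scavenger receptor that binds bacteria and inert particles, was the most variable marker (chromosome 1, 120474538 to 120505024). It was at 6.40, 6.19 and 4.65 FPKM in water and 13.0, 12.2 and 2.16 in PS-MP, from 130 to 202 reads per water library against 328, 375 and 62 in PS-MP. PS-MP replicates 1 and 2 were above all water libraries and PS-MP replicate 3 was below all of them. The log2 fold change was 0.31 with an SE of 0.56 and a 95% interval of -0.98 to 1.61 (adjusted p = 0.851 by limma). Without PS-MP replicate 3 it was 1.08 with an adjusted p of 0.0553, where the adjusted p over all alternatives ran from 0.0553 to 0.981. Without PS-MP replicate 1 the log2 fold change was -0.09, and without PS-MP replicate 2 it was -0.05. The same library with the low Marco value held 860 Snap25 reads, and the part of that in the Marco value was not tested. Summed over the 5 resident markers, the level was 71.96, 76.98 and 77.95 FPKM in water and 95.6, 91.2 and 76.86 in PS-MP.

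The 7 broader tissue macrophage markers, which include C1q, split with 4 positive and 3 negative fold changes (median 0.05, 0 changed). Cd163, the receptor that takes up haemoglobin bound to haptoglobin (chromosome 6, 124304656 to 124330527), was at 5.06, 6.56 and 6.85 FPKM in water and 10.6, 8.61 and 6.53 in PS-MP. PS-MP replicates 1 and 2 were above water and replicate 3 was inside its range. The means were 6.16 ± 0.957 and 8.59 ± 2.05 FPKM (SD, n = 3 each), with a log2 fold change of 0.43, an SE of 0.18, an unadjusted p of 0.0398 and an adjusted p of 0.357 by limma. Adgre1, which encodes F4/80, ran from 3.33 to 3.93 FPKM in water and from 3.13 to 4.58 in PS-MP (log2 fold change 0.11, adjusted p = 0.789). Folr2, the folate receptor of resident macrophages, had 0.05. Most of its exon sequence, 975 of 1546 bases, overlaps the gene model Gm10602, so its reads are uncertain. Spic, the factor needed for macrophages that recycle red cell iron, had -0.04 at 0.359 to 0.630 FPKM.

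C1qa, C1qb and C1qc encode the chains of C1q, the recognition part of the classical complement pathway, which liver makes largely in macrophages. The genes lie side by side within 18675 bases of chromosome 4 (136880129 to 136898803). C1qa was at 20.3, 23.3 and 22.5 FPKM in water and 24.0, 23.1 and 16.0 in PS-MP. C1qb was at 19.5, 20.1 and 19.4 FPKM in water and 20.2, 20.7 and 16.8 in PS-MP. C1qc was at 10.3, 9.84 and 11.1 FPKM in water and 11.95, 11.3 and 9.997 in PS-MP. For C1qa and C1qb, PS-MP replicate 3 was the lowest of the 6 libraries, while for C1qc it lay inside the water range, and the groups overlapped for all 3 genes. The log2 fold changes were -0.09 for C1qa, -0.04 for C1qb and 0.08 for C1qc, with adjusted p of 0.845, 0.878 and 0.732 by limma. Without PS-MP replicate 3 they were positive for all 3 genes, at 0.09 for C1qa, 0.05 for C1qb and 0.15 for C1qc. The FPKM ratio of C1qb to C1qc was 1.75 to 2.04 in water and 1.68 to 1.83 in PS-MP. The ratio of C1qa to C1qc was 1.97 to 2.37 in water and 2.004, 2.04 and 1.61 in PS-MP.

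**Figure D2:**
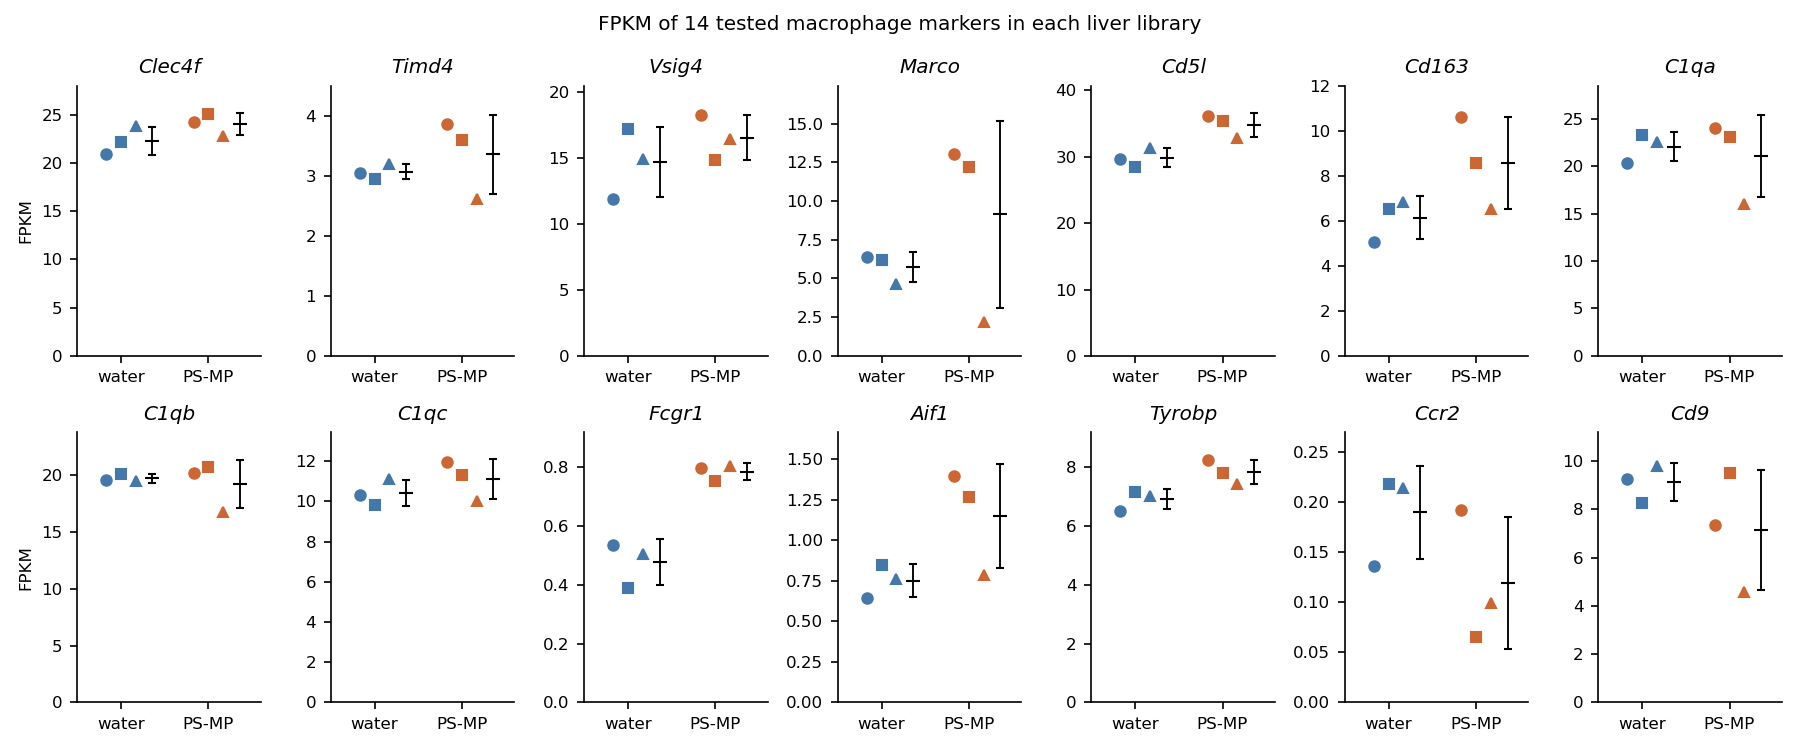
FPKM of 14 tested markers in each library, with water in blue and PS-MP in orange; circles, squares and triangles are replicates 1, 2 and 3, and the black bar is the mean ± SD (n = 3). Cd5l, Fcgr1 and Tyrobp have no overlap between the groups, and for Marco PS-MP replicates 1 and 2 (13.0 and 12.2 FPKM) and replicate 3 (2.16 FPKM) lie on opposite sides of water.

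Of 11 markers shared by myeloid cells, 10 had a positive fold change and 0 passed (median 0.09). Fcgr1, the high-affinity receptor for IgG (CD64; chromosome 3, 96282909 to 96293969), was at 0.534, 0.387 and 0.505 FPKM in water and 0.797, 0.751 and 0.803 in PS-MP. These values came from 17 to 21 reads in water and 27 to 31 in PS-MP, and the groups did not overlap. It had the smallest p of the markers (log2 fold change 0.40, SE 0.10, 95% interval 0.16 to 0.64, unadjusted p = 0.00484, adjusted p = 0.168 by limma). Aif1, which encodes the calcium-binding protein IBA1, was at 0.645, 0.847 and 0.764 FPKM in water and 1.40, 1.27 and 0.788 in PS-MP. PS-MP replicates 1 and 2 were above water and replicate 3 was inside its range (log2 fold change 0.38, SE 0.16, unadjusted p = 0.0444, adjusted p = 0.369 by limma). Tyrobp, the adaptor DAP12 that carries the signal of TREM2 and other receptors, was at 6.52, 7.17 and 7.02 FPKM in water and 8.25, 7.81 and 7.44 in PS-MP. All 3 PS-MP libraries were above water, by a small margin in replicate 3 (log2 fold change 0.17, SE 0.08, adjusted p = 0.401 by limma).

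The other 8 pan-myeloid markers had overlapping groups. Lyz2, the lysozyme of myeloid cells, was at 31.4 to 38.8 FPKM in water and 37.0, 35.9 and 26.4 in PS-MP (log2 fold change -0.04), and its copy Lyz1 was at 0 to 0.626 FPKM. Csf1r, the receptor for the growth factors on which macrophages depend, had a log2 fold change of 0.09 with a 95% interval of -0.18 to 0.35, and 873 of its exon bases overlap Hmgxb3. Cd68 of lysosomes had 0.04, the protease gene Ctss 0.02 and Mpeg1, which encodes the pore-forming perforin-2, 0.13. Cd14, the co-receptor for lipopolysaccharide, had 0.19 with an interval of -0.39 to 0.76. The integrin chains Itgam (CD11b) and Itgax (CD11c) had 0.07 and 0.08 at 6 to 16 reads per library. Of the exon bases of Itgam, 3450 of 5024 overlap Gm49368. Adjusted p for these 8 genes ran from 0.572 for Mpeg1 to 0.920 for Ctss.

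The monocyte markers lay near the depth limit. Ccr2, the chemokine receptor by which monocytes leave the bone marrow (chromosome 9, 124101950 to 124113557), had 14, 25 and 21 reads in water and 17, 7 and 10 in PS-MP, or 0.136, 0.218 and 0.214 FPKM against 0.192, 0.0650 and 0.0992. PS-MP replicate 1 lay inside the water range and replicates 2 and 3 below it (log2 fold change -0.16, SE 0.11, adjusted p = 0.589 by limma-trend). On the recovered reads limma-voom gave -0.80, and the adjusted p over all alternatives ran from 0.466 to 0.800. Ly6c2, a surface protein of classical monocytes, had 8, 8 and 7 reads in water and 1, 1 and 3 in PS-MP, too few to be tested. The groups did not overlap. Pooled over each group, 5 reads in PS-MP against 23 in water gave a ratio per library total of 0.231, with a 95% counting interval of 0.0685 to 0.621 that leaves out the spread between libraries. Its near-identical neighbour Ly6c1 had 8, 5 and 7 reads in water and 4, 4 and 12 in PS-MP, so the counting may have shared reads between these copies. Cx3cr1, the fractalkine receptor of patrolling monocytes and of microglia, had 9, 4 and 10 reads in water and 4, 3 and 12 in PS-MP (pooled ratio 0.877, interval 0.452 to 1.68), with 78 exon bases shared with Gm33858. Over the 3 genes together, reads were 31, 37 and 38 in water and 22, 11 and 25 in PS-MP.

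Of the 3 lipid-associated markers, Trem2 and Gpnmb were also too low to test, and their reads went in opposite directions. Trem2, a receptor for lipids and lipoproteins, had 4, 0 and 5 reads in water and 3, 10 and 13 in PS-MP. PS-MP replicate 1 lay inside the water range and replicates 2 and 3 above it, and pooled over each group the ratio was 3.07 (95% counting interval 1.39 to 7.44). The library with 13 Trem2 reads, PS-MP replicate 3, also held 860 Snap25 reads. The part of brain transcripts in the Trem2 reads was not tested. Gpnmb, a membrane glycoprotein of lipid-laden macrophages, had 13, 11 and 8 reads in water and 1, 3 and 5 in PS-MP. All PS-MP libraries were below all water libraries, with a pooled ratio of 0.299 (0.125 to 0.640). With no low-count rule, limma-trend gave an unadjusted p of 0.00296 for Ly6c2, 0.0209 for Gpnmb, 0.111 for Trem2 and 0.728 for Cx3cr1, and the adjusted p were 0.284, 0.519, 0.711 and 0.906. Among all 3799 untested genes with at least 15 reads, 3.29% had PS-MP below water with no overlap, and among the 4 untested markers Ly6c2 and Gpnmb did.

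Cd9, a tetraspanin that many liver cells besides macrophages also express, was at 9.28, 8.26 and 9.80 FPKM in water and 7.37, 9.52 and 4.56 in PS-MP. PS-MP replicate 2 was inside the water range and replicates 1 and 3 below it, replicate 3 far below (log2 fold change -0.38, SE 0.22, adjusted p = 0.512 by limma). Without PS-MP replicate 3 the value was -0.11. It shares 218 exon bases with Gm26728. Of the related markers, the tetraspanin Cd63 had 0.17 and the lectin Lgals3 (galectin-3) had -0.11, with adjusted p of 0.696 and 0.767. Set side by side, the 5 resident markers had a median log2 fold change of 0.18, while Ccr2 at -0.16 and Cd9 at -0.38 were the 1 tested marker each of the monocyte and lipid-associated groups. Whether the 3 groups of markers differ from each other was not tested.

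**Figure D3:**
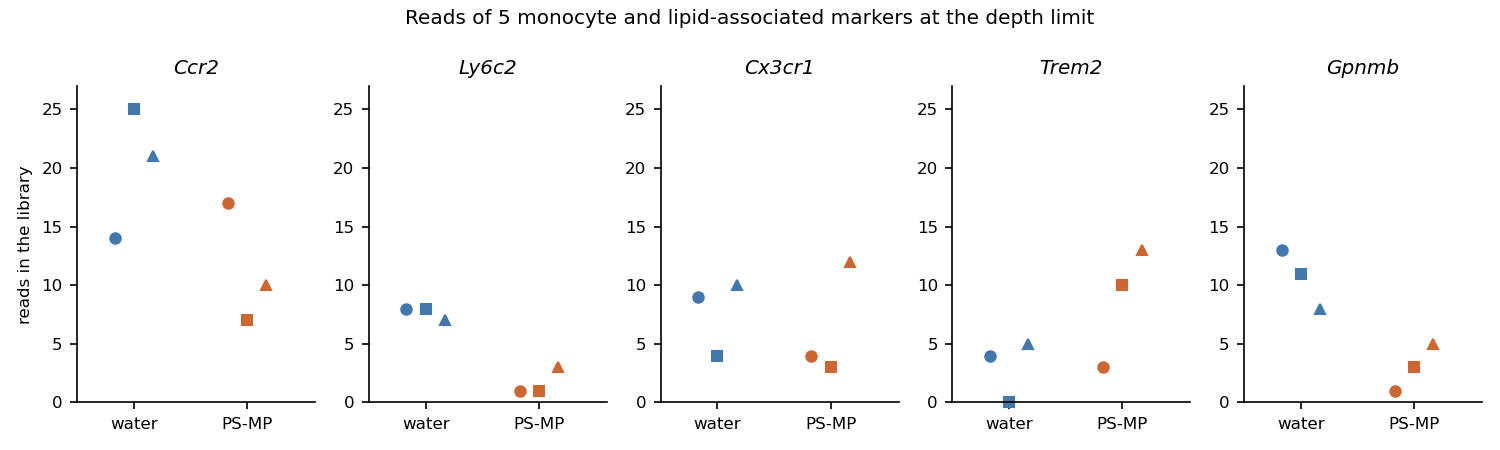
Reads in each library for Ccr2, Ly6c2, Cx3cr1, Trem2 and Gpnmb, with water in blue and PS-MP in orange; circles, squares and triangles are replicates 1, 2 and 3. Ly6c2 (7 or 8 reads in water, 1 to 3 in PS-MP) and Gpnmb (8 to 13 against 1 to 5) have no overlap between the groups.

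Library by library, the tested markers were highest most often in PS-MP replicate 1, while the lowest values were spread over PS-MP replicate 3 and water replicates 1 and 2. PS-MP replicate 1 was the highest of the 6 libraries for 15 of 27 markers (55.6%), against 14.1% of all genes tested, and lay above all water libraries for 18 (66.7% against 29.3%). PS-MP replicate 2 lay above all water libraries for 12 (44.4% against 28.5%) and PS-MP replicate 3 for 6 (22.2% against 36.3%). PS-MP replicate 3 was the lowest library for 9 markers (33.3% against 18.3%), water replicate 1 for 8 (29.6% against 16.2%) and water replicate 2 for 7 (25.9% against 19.8%). PS-MP replicate 3 lay below all water libraries for 10 (37.0% against 26.8%), C1qa, C1qb, Marco and Timd4 among them. The median difference from the water mean over the markers, on log2(FPKM + 0.5), was 0.22, 0.09 and -0.12 in PS-MP replicates 1, 2 and 3, and -0.04, -0.03 and 0.09 in water. For the resident markers the medians in PS-MP were 0.29, 0.20 and 0.03. With PS-MP replicate 3 left out, both remaining PS-MP values were above all water values for 10 markers (37.0%; Clec4f, Timd4, Marco, Cd5l, Cd163, C1qb, C1qc, Fcgr1, Aif1 and Tyrobp), against 15.7% of all genes. The markers are transcripts of partly the same cells in the same libraries, so these counts are not independent of each other.

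**Figure D4:**
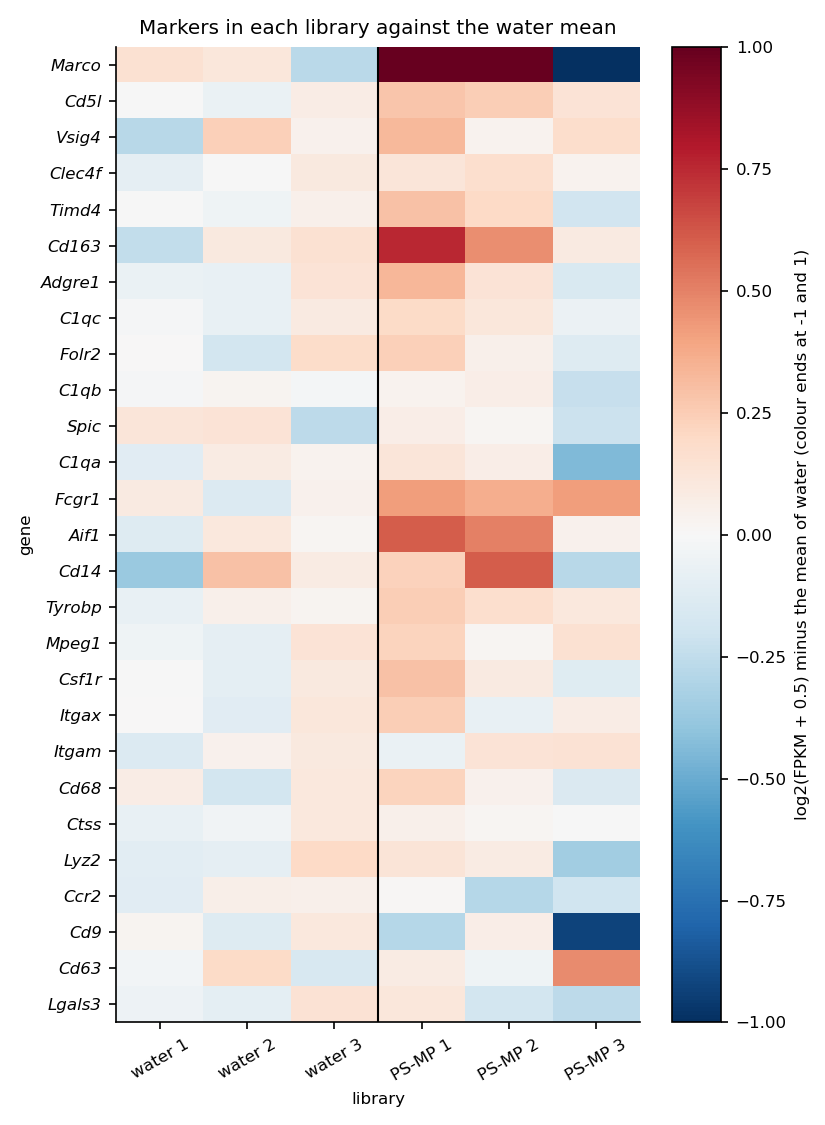
Each cell is log2(FPKM + 0.5) of a tested marker in a library minus its mean over the 3 water libraries; red is above and blue below that mean, and the colour scale ends at -1 and 1. The column of PS-MP replicate 1 is mostly red (median 0.22) and that of PS-MP replicate 3 mostly blue (median -0.12).

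Genes that act with the markers were read from further lists, and 1 of these genes changed. Among 10 factors that set Kupffer cell identity, Id3, a transcriptional regulator needed for Kupffer cells that also answers BMP signals in endothelial and other liver cells, was at 3.68, 4.15 and 5.73 FPKM in water and 8.96, 12.9 and 12.8 in PS-MP. The groups did not overlap, and Id3 rose (log2 fold change 1.27, SE 0.18, adjusted p = 0.039 by limma). The call was lost without any 1 of the water libraries (adjusted p = 0.154, 0.111 and 0.128 without replicates 1, 2 and 3), without PS-MP replicate 2 (0.119) or PS-MP replicate 3 (0.0932), and over all alternatives adjusted p ran from 0.015 to 0.503. The median over the 10 factors was 0.01.

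The 13 further Kupffer cell genes had 8 positive fold changes and 0 changed (median 0.10), with the smallest p for Clec1b at 0.23 and Il18bp, which binds IL-18, at 0.17. Of 11 genes for the uptake of dying cells and scavenging, 0 changed (median 0.07). Among them Mertk, a receptor tyrosine kinase that clears dying cells, was at 7.09, 7.67 and 8.07 FPKM in water and 10.1, 10.1 and 8.87 in PS-MP, with no overlap (log2 fold change 0.33, SE 0.09, adjusted p = 0.168 by limma), and the integrin Itgb5 had -0.17. Of 7 tested niche ligands and survival factors 0 changed (median 0.03), with Jag1, a Notch ligand, at 0.32 and Il34, a ligand of CSF1R, at 0.37. Of 12 Fc receptor and ITAM signalling genes 0 changed (median -0.06), with the phosphatase Ptpn6 at -0.23 and the IgG receptor Fcgr3 at 0.30. An unadjusted p under 0.05 was reached by Mertk, Jag1 and Ptpn6 in these 4 lists, and limma-voom called 0 of their genes.

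Lysosomal genes were near 0 as a list of 21 (median -0.01, 0 changed), and Lipa, the acid lipase of lysosomes, had -0.39 with an adjusted p of 0.107, followed by Hexa at -0.18. Among 11 tested further genes of lipid-associated macrophages, the median was -0.05 and 0 changed. Plin2, a coat protein of lipid droplets in hepatocytes as well as macrophages, had -0.73 (adjusted p 0.0627 by limma-trend and 0.0225 by limma-voom). Atp6v0d2 had 0.36. This list does not read macrophages alone. Apoe was at 4549 to 5739 FPKM. Fabp4 had 634, 113 and 275 reads in water and 91, 112 and 337 in PS-MP, most in the libraries with Ucp1 reads. The part of other cells in the list was not tested. Of 17 effector genes of activated macrophages, 7 could be tested and 0 changed (median 0.02), with the cytokine Il1b at 0.24. In these 3 lists Lipa, Hexa and Plin2 had an unadjusted p under 0.05.

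**Figure D5:**
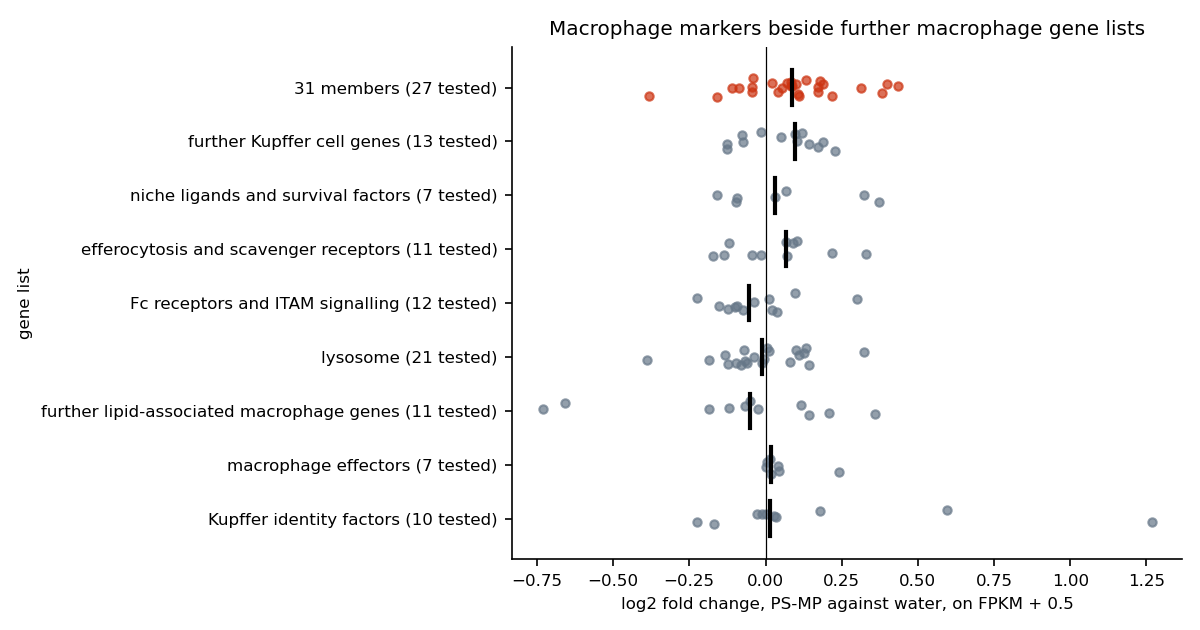
Each point is the log2 fold change of a tested gene, PS-MP against water, in the 31 markers (red) and in 8 further lists (grey); black bars are medians. The medians run from -0.06 for Fc receptor and ITAM signalling to 0.10 for further Kupffer cell genes, and Id3 at 1.27 lies farthest to the right.

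Marker lists of other cell types gave 0 changed genes each with limma-trend and with limma-voom. Unadjusted p from limma-trend was under 0.05 for 1 gene each of the hepatocyte and the B and plasma cell lists, 2 of the microglial and 6 of the neuron list, and 0 of the others. Sinusoidal endothelial markers had a median of -0.04 over 10 genes (Lyve1 at 0.24 and Clec4g at -0.10 had the smallest p) and stellate cell markers 0.01 over 10 (Rgs5 at 0.15, Ngfr at -0.14). Hepatocyte markers had a median of -0.03 over 8 (Ass1 at 0.39, Ttr at -0.19). Peritoneal macrophage markers had 0.05 over 4 tested (Gata6 at 0.18, Icam2 at -0.18). The microglial list had -0.06 over 5 tested, with P2ry12 at 0.46 and Sall1, which liver expresses outside microglia, at -0.39. The 5 tested B and plasma cell genes were all negative (median -0.19, Igkc at -0.44 and Ighd at -0.39). Neutrophil markers summed to 47 to 61 reads in water and 46 to 68 in PS-MP, with Ly6g and Mpo at 0 in all libraries and Csf3r the 1 gene tested (0.17). T and NK cell markers summed to 46 to 80 reads and 56 to 70, with Cd4 the 1 gene tested (0.20). Of the dendritic cell markers Clec9a had 0.13 and Zbtb46 0.07. The 6 tested neuron markers were all positive (median 1.41, Nrgn at 1.83 and Syt1 at 0.84), and the adipose list had a median of -0.79 over 6 (Plin4 at 0.57, Cfd at -1.88).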

How the data were processed

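Whole-liver RNA of 6 libraries (3 PS-MP, 3 water) was analysed, with groups and replicate numbers taken from the labels. The authors deposited 1 FPKM value per gene and library. Per the submitters' processing notes, CASAVA, FastQC, MultiQC, Trimmomatic 0.38, HISAT2 2.1.0, featureCounts 1.6.0 and DESeq2 1.22.1 were used. The notes name the build GRCh38, whereas all 55536 gene identifiers are those of mouse GENCODE M21 on GRCm38. The sources used here do not state whether counting used strand, or counted reads or pairs. Reads behind each FPKM were recovered from exon length and the smallest step in a library, and 100% of values above 0 came out whole (tolerance 0.001). Intervals from reads cover counting error only.

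Values were tested as log2(FPKM + 0.5) with limma-trend (limma 3.58.1, R 4.3.3, two-sided), with group as the only term, and p was adjusted by Benjamini-Hochberg over 13299 genes at a threshold of 0.05. Genes needed 15 reads in all and 0.66 CPM, which equals 10 reads at the median depth, in 3 libraries. Fold changes on FPKM + 0.5 understate those of low genes. The procedure was tested on simulated data with the same spread set for every gene and no library that stood apart. That test cannot show how the procedure handles a library like PS-MP replicate 3. No pair of libraries within a group was identical.

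The markers and lists were chosen with earlier results of these data known. Per library values are given for the resident, monocyte, lipid-associated and C1q genes, and for other markers with an unadjusted p under 0.05 or no overlap between the groups. Of each further list, the 2 genes with the smallest p and any changed gene are named. A few genes that this rule would name are left out. Alternatives were 2 pseudocounts, 2 low-count rules, median-of-ratios scaling, limma-voom on recovered reads, a replicate block, each library left out, and the 3 libraries that hold Ucp1 reads left out.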

Additional observations from a re-analysis of the deposited data

How the results depend on the processing

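There were 14 alternative settings. In those with at least 2 libraries per group, 0 markers passed the adjusted threshold of limma-trend or limma-voom. These settings had 1 to 7 markers at an unadjusted p under 0.05. The 1 came without PS-MP replicate 1 (3.70%, against 11.7% of all genes). The 7 came without PS-MP replicate 3 (25.9%, against 11.5% of all genes). The number of all genes that changed, 65 as reported, was 133 with limma-voom, 0 with no low-count rule (26854 genes tested, 2064 at an unadjusted p under 0.05), 0 with the 3 libraries that hold Ucp1 reads left out (1037 at an unadjusted p under 0.05, and a lone water library is assumed to vary like the others), and 0 to 36 with 1 library left out. With the replicate block it was 23. There was no sign that the replicate numbers pair the libraries (correlations of same-numbered deviations -0.04, 0.05 and -0.01). Of the 6 libraries, 2 correlated best with their own number. With 3 libraries per group this check cannot exclude a pairing.

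The resident median of 0.18 became 0.29 without the Ucp1 libraries and 0.077 to 0.25 with 1 library left out. Ccr2, at -0.16, had -0.80 with limma-voom and -0.43 with a pseudocount of 0.1. The sign turned for 16 of the 27 tested markers in at least 1 setting. Without the Ucp1 libraries Vsig4 had -0.056, C1qa 0.013, C1qb 0.022, Lyz2 0.20, Itgam -0.0026, Cd9 0.020, Cd63 -0.17 and Lgals3 0.058. With median-of-ratios scaling Ctss had -0.00095. With 1 library left out, log2 fold changes ran from -0.091 to 1.08 for Marco, -0.0082 to 0.23 for Adgre1, -0.040 to 0.14 for Folr2, -0.17 to 0.043 for Spic, -0.19 to 0.094 for C1qa, -0.10 to 0.051 for C1qb, -0.015 to 0.19 for Csf1r, -0.051 to 0.13 for Cd68, -0.13 to 0.11 for Lyz2, -0.024 to 0.42 for Cd14 and -0.014 to 0.076 for Ctss. The cause of these turns was not tested. At 0 to 25 reads per library, the depth limits what can be said of Ccr2, Ly6c2, Cx3cr1, Trem2 and Gpnmb.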
